A study of Mus musculus with 2 samples.

Results

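Galectins are lectins, proteins that bind sugars, and 5 of their genes (Lgals1, Lgals2, Lgals3, Lgals4 and Lgals9) were followed through single cells of the mouse colon crypt. They were taken by symbol from a count matrix of 19294 genes. The rule itself uses no measured value, but it was chosen with earlier results of these data known. Levels of 4 of the 5 could be given in these cells: Lgals3 and Lgals4 were highest in absorptive precursors, Lgals1 in induced intraepithelial lymphocytes, and Lgals9 in both kinds of intraepithelial lymphocyte. Lgals2 had no count in any cell that the study placed in a cluster.

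Crypts were collected from the inverted colon of Tcf4GfpCre/+ RosamTmG/+ mice on C57BL/6, aged 4 to 10 months, and sorted Tcf4 Lin- and MIX cells were pooled and profiled by Drop-seq, in which a droplet's transcripts receive its barcode and each molecule its own tag (UMI, a unique molecular identifier). In these mice GFP and Cre are expressed from the Tcf4 (Tcf7l2) locus, which inactivates that allele, and RosamTmG is a reporter that changes from membrane tomato to membrane GFP after Cre activity. All cells were therefore heterozygous for Tcf4, and no group with both Tcf4 copies was analysed here. The labels name 2 pools (samples 1-3 and samples 4-6), and human cells were mixed in before capture.

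Galectins bind glycans that carry galactose, and most of them leave the cell without a signal peptide. The family is divided by structure: Lgals1 and Lgals2 are prototype galectins with a single sugar-binding domain, Lgals3 joins such a domain to a repetitive tail and is the chimeric member, and Lgals4 and Lgals9 are tandem-repeat galectins in which different sugar-binding domains are linked. In the intestine, galectin-3 and galectin-4 are known as epithelial proteins that take part in apical sorting and cell adhesion. Galectin-1 and galectin-9 are known for their action on T cells, where CD7, CD43 and CD45 are counter-receptors of galectin-1 and TIM-3 is a receptor of galectin-9.

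The 5 genes lie on 4 chromosomes of GRCm38 (GENCODE M21). Lgals1 is at chr15:78926725-78930465 on the forward strand and Lgals2 at chr15:78850860-78855529 on the reverse strand. Lgals3 is at chr14:47367751-47386160 and Lgals4 at chr7:28833854-28841708, both on the forward strand, and Lgals9 is at chr11:78962974-78984946 on the reverse strand. Each count covers all reads given to a gene, so that exons, introns and untranslated regions cannot be separated. RefSeq promoters, from 250 bases before to 50 bases after the start site, were matched for 4 of the 5 genes, all but Lgals1. Those of Lgals3 (chr14:47373610-47373909, forward strand), Lgals4 (chr7:28833544-28833843, forward strand) and Lgals9 (chr11:78984875-78985174, reverse strand) on GRCm38.p6 are shown because these 3 genes had UMIs in every epithelial subcluster, and capitals mark GGGCGG and CACCC on either strand.
Lgals3: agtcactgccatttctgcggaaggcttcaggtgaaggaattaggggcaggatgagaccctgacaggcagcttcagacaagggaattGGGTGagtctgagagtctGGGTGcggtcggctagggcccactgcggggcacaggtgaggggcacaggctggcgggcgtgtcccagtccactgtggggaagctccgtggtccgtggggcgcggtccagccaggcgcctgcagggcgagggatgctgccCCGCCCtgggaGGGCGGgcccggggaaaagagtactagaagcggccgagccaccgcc
Lgals4: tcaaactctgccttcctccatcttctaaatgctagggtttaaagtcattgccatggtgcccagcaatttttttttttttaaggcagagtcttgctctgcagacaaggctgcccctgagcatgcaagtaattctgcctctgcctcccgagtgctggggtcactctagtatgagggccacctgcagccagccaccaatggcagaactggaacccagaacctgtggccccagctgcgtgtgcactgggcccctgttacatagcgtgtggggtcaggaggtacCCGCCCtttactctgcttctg
Lgals9: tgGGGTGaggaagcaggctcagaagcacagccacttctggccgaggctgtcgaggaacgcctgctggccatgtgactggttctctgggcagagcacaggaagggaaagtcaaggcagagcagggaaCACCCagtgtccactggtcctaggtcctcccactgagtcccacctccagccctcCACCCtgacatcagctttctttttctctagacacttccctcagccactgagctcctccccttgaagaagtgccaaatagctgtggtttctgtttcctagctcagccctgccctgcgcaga

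The window of Lgals3 held 2 GGGCGG and 2 CACCC, with a GC content of 67.0%. That of Lgals4 held 1 GGGCGG and no CACCC at 54.0% GC, and that of Lgals9 held 3 CACCC and no GGGCGG at 58.0% GC. TATAAA was in none of the 3. Among 32851 mouse promoters of the same length, 35.7% held GGGCGG, 57.5% held CACCC and 13.6% held TATAAA, and the median GC content was 52.7%. These are matches of letters only.

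The matrix held 1117 barcodes, and the study's cluster table placed 516 of them in 4 clusters: 190 natural intraepithelial lymphocytes (nIELs), 186 induced ones (iIELs), 93 epithelial Pigr+ cells and 47 B cells. A second table divides epithelial cells into 32 stem cells, 32 secretory precursors and 42 absorptive precursors. Of these 106 cells, 14 are also listed as IELs (11 as iIELs and 3 as nIELs), and these dual-listed cells were kept in the subclusters but left out of nIELs, iIELs and B cells unless a value is given as listed. Assigned cells had 504 to 23205 UMIs, with a median of 1126. By group the median was 995.5 UMIs for stem cells, 1820.5 and 1939.5 for secretory and absorptive precursors, 1148 for nIELs, 950 for iIELs and 1503 for B cells. Barcodes belong to a set X1 (454 assigned) or X2 (62 assigned), which share no barcode and which the sources used here do not tie to a pool or a sort, so that all cells are 1 sample and no p-value was computed. Of the assigned barcodes, 35 differed at 1 base from another of the same set. The 8 epithelial markers summed to between 17612 and 24773 UMIs per 1000000 (CPM) in the 3 subclusters and to between 78.2 and 205 in the 3 lymphocyte groups, and T cell markers to 15440 in nIELs and 31406 in iIELs. In their own subcluster, of the markers with at least 20 UMIs, absorptive ones were at least 2-fold higher for 7 of 7 genes, secretory markers for 10 of 11, and stem and proliferation markers for 6 of 7. Over all 3013 genes these shares were 12.9%, 9.16% and 13.1%, and since the study named its subclusters by some of the same markers, the counts only describe the labels. Myeloid markers had 2 UMIs and stromal and endothelial markers 10 in the 106 epithelial cells.

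Lgals3 was highest in absorptive precursors, the cells on the way to colonocytes, for which the study uses it as a marker. It had 180 UMIs there, or 1186 CPM (exact Poisson 95% interval 1019 to 1372). Secretory precursors had 30 UMIs, or 233 CPM (157 to 333), and stem cells 11 UMIs, or 159 CPM (79.5 to 285). The level of absorptive precursors stood clear of the other 2 subclusters, while those of stem cells and secretory precursors overlapped in their intervals. Against the other epithelial cells, Lgals3 was 5.72-fold higher in absorptive precursors (4.05 to 8.24). The same ratio was 0.270 for secretory precursors (0.177 to 0.398) and 0.213 for stem cells (0.105 to 0.389). These intervals and all that follow cover counting error only. The study made its clusters from expression in these same cells, and it counts Lgals3 among the genes by which it named the absorptive precursors. It also lists Lgals4 as a marker of that subcluster and Lgals1 as a marker of iIELs. Every ratio between clusters is therefore a description and no test.

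Single cells carried much of the Lgals3 outside absorptive precursors. In secretory precursors 24 of the 30 UMIs came from 1 cell of 12713 UMIs, and only 5 of 32 cells had any. Without the 7 cells over 10000 UMIs, the ratio of secretory precursors was 0.0454 and the fold of absorptive precursors 13.2. In absorptive precursors 33 of 42 cells had a UMI and 27 had at least 2, and the level within single cells had a median of 1036 CPM and a maximum of 5708. With each cell thinned to 700 UMIs, 53.1% of absorptive precursors kept an Lgals3 UMI. The same share was 10.2% among stem cells, 5.28% among secretory precursors and 7.16% among IELs. Stem cells and secretory precursors were thus near the share in IELs. Lgals3 and Lgals4 had 40 and 20 UMIs in IELs, and 221 and 1209 in the 106 epithelial cells. The source of the Lgals3 UMIs in IELs was not tested. In set X1, absorptive precursors had 1243 CPM, secretory precursors 282 and stem cells 234. In X2, with 8, 4 and 15 cells in that order, they had 903, 0 and 115 CPM, so that absorptive precursors were highest in both sets, and the fold of absorptive precursors in X2 was 11.9. T cell markers had 50 UMIs, in 19 of the 106 epithelial cells. B cell markers had 55 UMIs there, 48 of them Cd74. With the 70 cells free of T and B cell marker UMIs alone the fold was 19.4. That choice also left out the secretory precursor with 24 Lgals3 UMIs, which had 1 T cell marker UMI. The part of lymphocyte RNA in the change of fold was not tested.

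Lgals4 was the galectin found in most epithelial cells, and its levels were graded. Stem cells had 122 UMIs, or 1767 CPM (1467 to 2110), secretory precursors 347 UMIs, or 2697 CPM (2421 to 2996), and absorptive precursors 740 UMIs, or 4875 CPM (4530 to 5240). The 3 intervals did not overlap. In the same order, a UMI was found in 21 of 32 (65.6%), 29 of 32 (90.6%) and 38 of 42 cells (90.5%), and in 57.7%, 75.2% and 86.9% of cells thinned to 700 UMIs. In IELs the thinned share was 1.54%, below the shares of all 3 subclusters. The median level within single cells was 1122, 2518 and 3882 CPM, and the maximum in a cell 2844, 5311 and 11696 CPM. Single cells of the 3 subclusters overlapped in their levels.

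**Figure D1:**
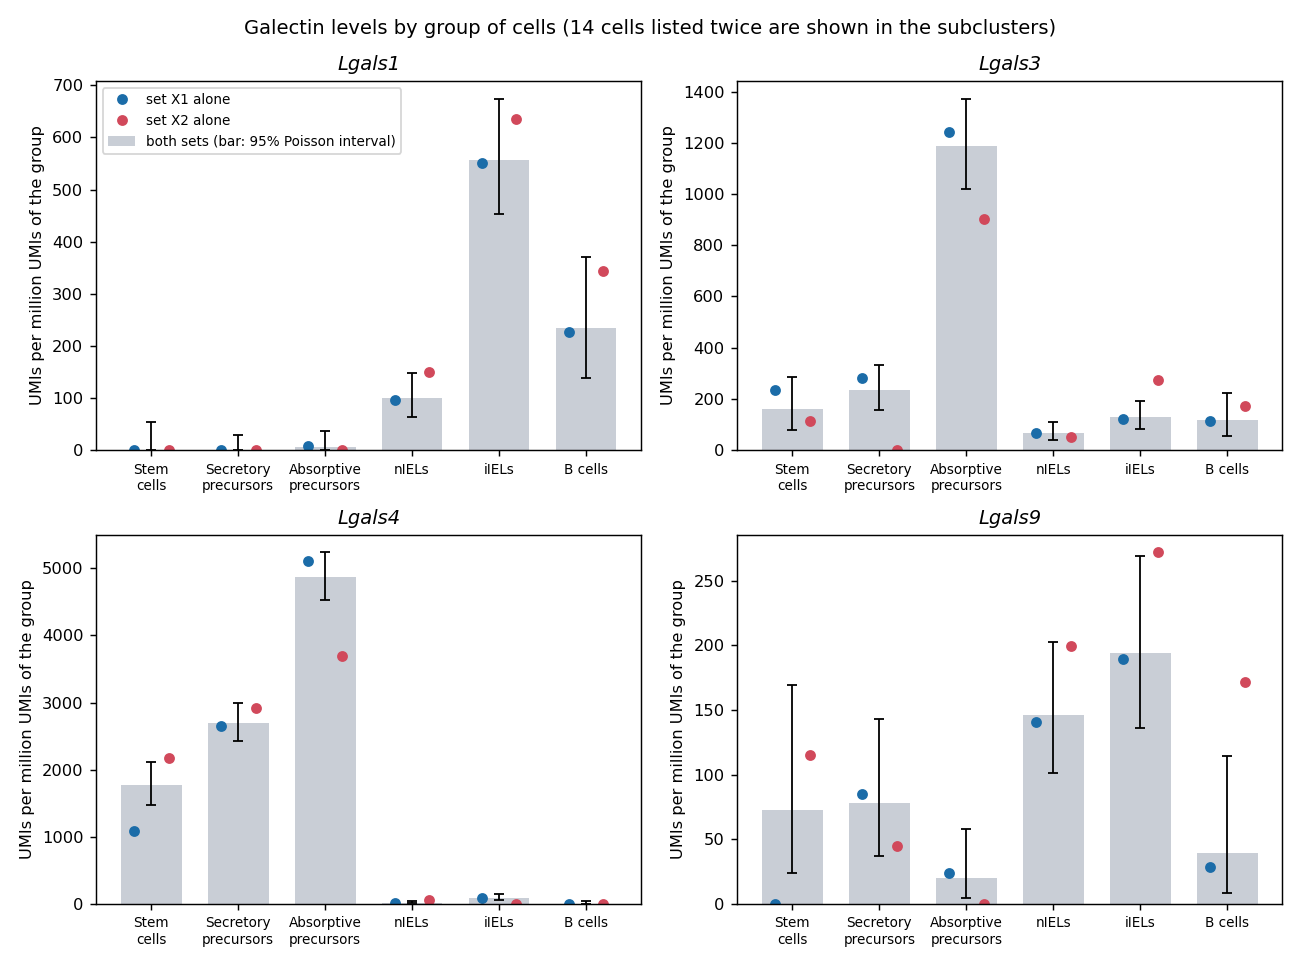
UMIs of Lgals1, Lgals3, Lgals4 and Lgals9 per 1000000 UMIs of the group in the 3 epithelial subclusters, nIELs, iIELs and B cells, each panel with its own axis. Grey bars are both barcode sets together with exact Poisson 95% intervals, blue points are X1 and red points X2. Lgals3 and Lgals4 are highest in absorptive precursors (1186 and 4875 CPM) and Lgals1 in iIELs (556 CPM), in both sets.

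Against the other epithelial cells, Lgals4 was 2.06-fold higher in absorptive precursors (1.83 to 2.31). The ratio was 0.691 for secretory precursors (0.608 to 0.783) and 0.456 for stem cells (0.375 to 0.550). The value for absorptive precursors sat on the 2-fold threshold: it was 1.98 with cells listed as epithelial in both tables alone, 1.94 without the cell richest in Lgals4, and 1.52 in X2. In stem cells 66 of the 122 UMIs came from 1 X2 cell of 23205 UMIs. In X1 the order was the same, from 1090 through 2651 to 5114 CPM, and in X2 the levels were 2168, 2918 and 3690 CPM. In X2 the intervals of neighbouring subclusters overlapped.

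Of the 5 genes, Lgals3 and Lgals4 had the 20 UMIs in epithelial cells that a call of at least 2-fold higher or lower required. Both were called higher in absorptive precursors, where 12.9% of 3013 genes were higher and 12.6% lower. Both were called lower in stem cells, where 16.1% of genes were lower. In secretory precursors Lgals3 was called lower, against 18.0% of genes lower and 9.16% higher. The median log2 ratio of the 2 genes was 1.78 in absorptive precursors (0.11 over all genes), -1.21 in secretory precursors (-0.26) and -1.68 in stem cells (-0.04).

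**Figure D2:**
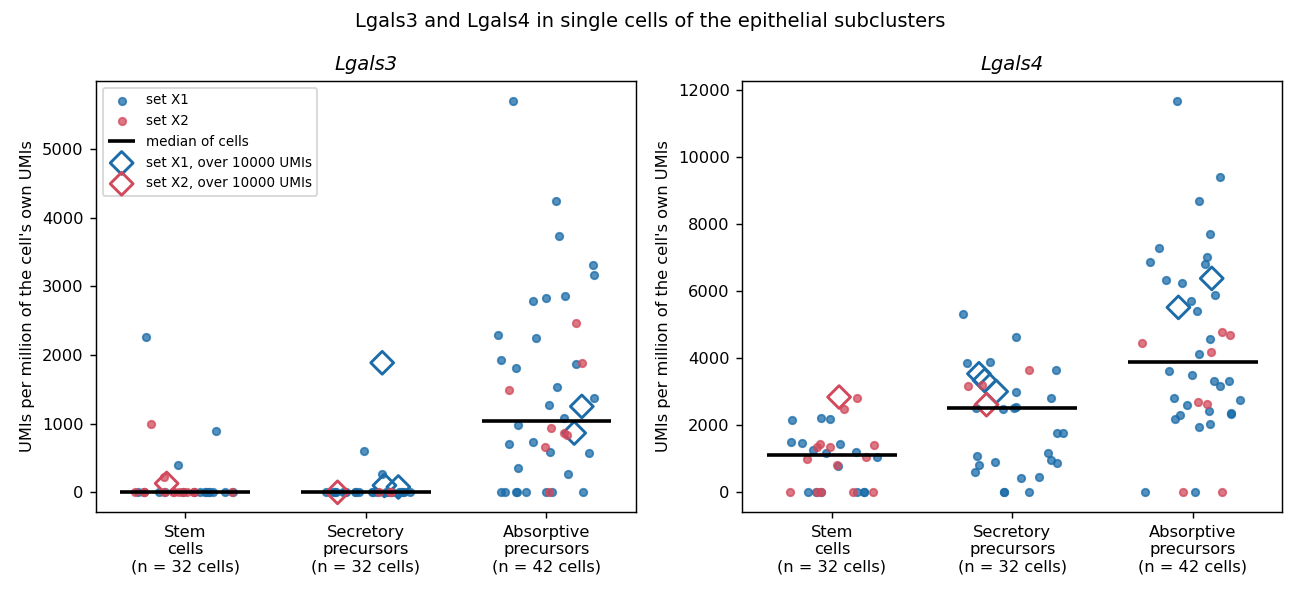
UMIs of Lgals3 and Lgals4 per 1000000 UMIs of the cell in each of the 106 epithelial cells, by subcluster, with horizontal lines at the group median, blue for X1, red for X2 and open diamonds for the 7 cells over 10000 UMIs. The medians of Lgals4 step up from 1122 through 2518 to 3882, and for Lgals3 only absorptive precursors have a median above 0 (1036).

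Most epithelial cells had an Lgals4 UMI, with Lgals3 (41 of 44 cells) or without it (47 of 62). Among absorptive precursors alone this held for 31 of 33 and 7 of 9 cells. UMIs of both genes were present in 31 of 42 absorptive precursors, and in 5 of 32 cells in each of the other 2 subclusters. At least 1 galectin UMI was found in 95.2% of the absorptive, 90.6% of the secretory and 68.8% of the stem cell subcluster, and in 50.9% of iIELs, 34.0% of B cells and 28.3% of nIELs. The 44 epithelial cells with an Lgals3 UMI had 3.57 times the summed level of absorptive markers found in the 62 without (3.06 to 4.19), 0.747 times that of secretory markers and 0.446 times that of stem and proliferation markers (0.371 to 0.534). Car2, a carbonic anhydrase of colonocytes, was at 2.05 times, and S100a6, a calcium-binding protein, at 2.14 times the level of cells without. Of the 44 cells with Lgals3, 33 were absorptive precursors, against 9 of the 62 without. The study named that subcluster by Lgals3 and some of these markers, so the marker ratios describe the labels and test nothing. Cells with Lgals3 were also deeper, with a median of 2640.5 against 1239 UMIs, and the part of depth in these ratios was not tested. Within absorptive precursors alone, the 33 cells with Lgals3 had 1.86 times the absorptive markers of the 9 without (1.46 to 2.39). Of those 9 cells, 1 dual-listed cell held 23 of their 25 T cell marker UMIs, with 1 epithelial marker UMI and no galectin UMI.

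**Figure D3:**
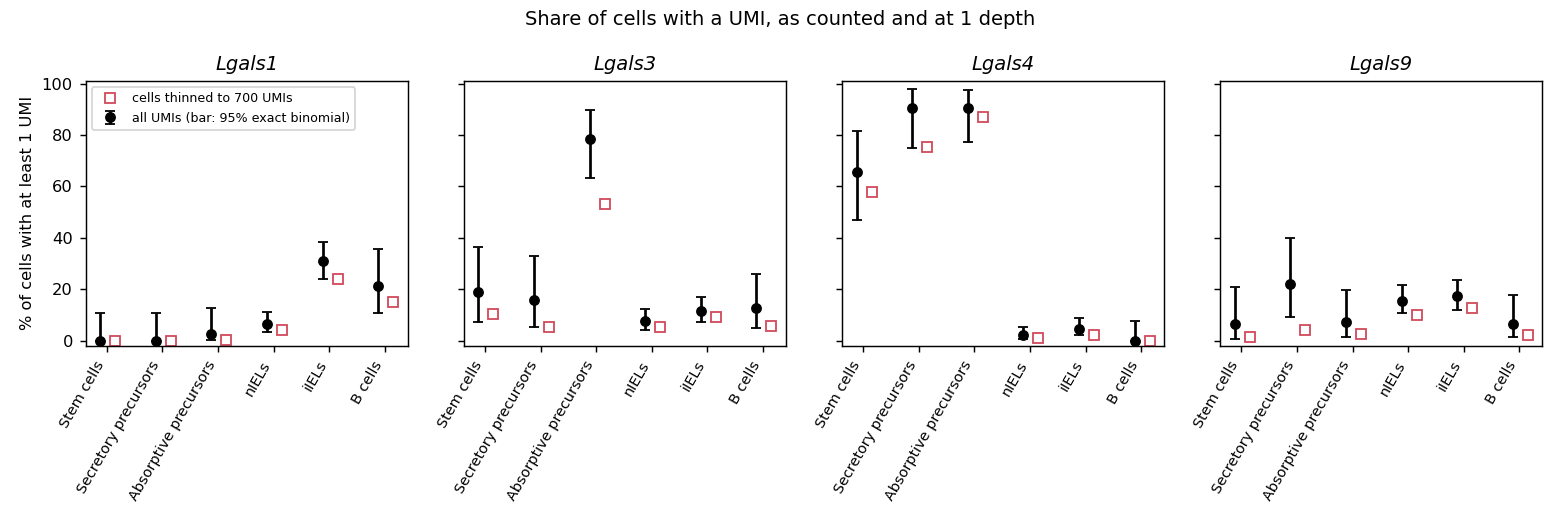
Percentage of cells with at least 1 UMI of Lgals1, Lgals3, Lgals4 and Lgals9 in the 6 groups, as counted (black points with exact Clopper-Pearson 95% intervals) and with each cell thinned to 700 UMIs (open red squares). Lgals3 in absorptive precursors drops from 78.6% to 53.1% when thinned and remains the highest of the 6 groups, and Lgals1 is found in 30.9% of iIELs.

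Lgals9, the other tandem-repeat member, had its highest levels in iIELs and nIELs. It had 36 UMIs in iIELs, 194 CPM (136 to 269), and 35 in nIELs, 146 CPM (102 to 203), and was found in 17.1% and 15.5% of their cells. In B cells 3 UMIs gave 39.1 CPM (8.06 to 114). Among epithelial cells, secretory precursors had 10 UMIs, 77.7 CPM (37.3 to 143), stem cells 5, 72.4 CPM (23.5 to 169), and absorptive precursors 3, 19.8 CPM (4.08 to 57.8). Secretory precursors had a UMI in 7 of 32 cells (21.9%), above the share in IELs, but thinned to 700 UMIs the share was 4.17% there, 9.85% in nIELs and 12.6% in iIELs. The intervals of iIELs and nIELs overlapped, and both lay above that of absorptive precursors. Both also overlapped the intervals of secretory precursors and stem cells. In stem cells 4 of the 5 UMIs were in the cell of 23205 UMIs. With 18 UMIs in all epithelial cells, Lgals9 did not reach the 20 UMIs for a call between subclusters. All 12 epithelial cells with Lgals9 also had Lgals4, and they were deep, with a median of 4541.5 UMIs against 1463 in the others. Between the 106 epithelial cells and 409 lymphocytes the ratio of Lgals9 was 0.349 (0.196 to 0.591), while that of Lgals4 was 86.8 (56.0 to 143) and that of Lgals3 6.48 (4.73 to 9.02).

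Lgals1 distinguished the IEL clusters. It had 103 UMIs in iIELs, 556 CPM (454 to 675), 24 in nIELs, 100.0 CPM (64.1 to 149), and 18 in B cells, 235 CPM (139 to 371). A UMI was found in 54 of 175 iIELs (30.9%, exact Clopper-Pearson 95% interval 24.1 to 38.3), in 12 of 187 nIELs (6.42%) and in 10 of 47 B cells (21.3%). T cell markers were at 5670 CPM in B cells, in 23 of the 47, and their part in the Lgals1 of B cells was not tested. Stem cells and secretory precursors had none, and absorptive precursors had 1 UMI, so that 1 UMI was counted among 106 epithelial cells. The level of iIELs stood above those of nIELs and B cells, whose intervals met at their ends. In X1 Lgals1 was at 551 CPM in iIELs and 95.5 in nIELs, and in X2 at 635 and 149 CPM, the last from 7 and 3 UMIs.

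Between iIELs and nIELs the fold of Lgals1 was 5.56 (3.54 to 9.07). No iIEL had more than 7 Lgals1 UMIs, and 23 of 175 (13.1%) had at least 2, while 7 of the 24 UMIs of nIELs were in 1 cell. Thinned to 700 UMIs per cell, 23.9% of the 142 iIELs deep enough had a UMI. Lgals3 was 1.94 times as high in iIELs (0.991 to 3.92, 24 against 16 UMIs) and Lgals9 1.33 times (0.814 to 2.19), so both intervals included equal levels. Lgals4 was 5.19-fold higher (1.67 to 21.3), from 16 against 4 UMIs, of which 8 were in 1 iIEL. Lgals1 and Lgals4 were the 2 of 4 genes called higher in iIELs, against 6.20% of 3321 genes. The median log2 ratio of the 4 genes was 1.67, beside 0.00 over all genes. For Lgals4 no call could be made within either barcode set, where fewer than 20 UMIs remained. Its fold in X1 was 6.74, from 16 against 3 UMIs, and over both sets without the iIEL richest in Lgals4 it was 2.60. Epithelial markers were at 205 CPM in iIELs against 117 in nIELs. By gene they differed: Epcam and Cdh1 had 7 and 7 UMIs in iIELs against 10 and 13 in nIELs. Pigr had 15 against 4. Krt8, Krt19, Cldn7 and Cldn3 had 2, 3, 3 and 1 in iIELs against 0, 0, 1 and 0 in nIELs. The part of epithelial RNA in the Lgals4 value was not tested.

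The 54 iIELs with Lgals1 were set beside the 121 without for a few lymphocyte genes that were picked after the data had been seen. No share over all genes is given for this split, so the values only describe these cells. Of the genes below, the study shows Gzmb as an iIEL marker and Fcer1g and Cd7 as nIEL markers. S100a4, a calcium-binding protein of activated and memory T cells, had 19 against 4 UMIs, 281 against 34.0 CPM, in 8 and 4 cells. Gzmb, a granzyme of cytotoxic cells, was at 0.714 times the level of cells without Lgals1 (0.570 to 0.890), Fcer1g, a signalling adaptor, at 0.383 times (0.163 to 0.799) and Cd7 at 0.703 times (0.530 to 0.924). Median depth was 1065.5 UMIs with and 895 without Lgals1. Lgals1 and Lgals9 were found together in 8 of 175 iIELs.

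Over the 4 clusters as listed, Lgals3 and Lgals4 were called higher in epithelial Pigr+ cells, Lgals1 in iIELs alone and Lgals9 in no cluster. In epithelial Pigr+ cells Lgals4 was 4.42-fold (3.93 to 4.98) and Lgals3 3.54-fold higher (2.76 to 4.55), while Lgals1 had a ratio of 0.0168 and Lgals9 of 0.436 (0.228 to 0.777). These were 2 genes higher and 2 lower of 4, in a cluster where 19.2% of 6173 genes were higher and 24.0% lower. The dual-listed cells, counted here as IELs, held 417 Lgals4 UMIs, and without them the folds in epithelial cells were 80.2 for Lgals4 and 6.60 for Lgals3. In iIELs only Lgals1 was called higher, at 4.79-fold (3.32 to 7.0), where 4.33% of genes were higher. There the ratio of Lgals4 was 1.08 as listed and 0.0612 without the dual-listed cells, and that of Lgals3 0.918 and 0.396. In nIELs 3 of 4 genes were called lower, where 22.3% of genes were lower: Lgals4 had a ratio of 0.0123, Lgals3 of 0.158 and Lgals1 of 0.494 (0.305 to 0.769). In B cells 3 of 4 were called lower, where 20% of genes were lower. There Lgals3 was at 0.348 and Lgals9 at 0.341 (0.0689 to 1.03), and Lgals1 was at 1.42 (0.816 to 2.34). Lgals4 had no UMI: with 3 counts put in its ratio was 0.0246, and the counting interval had an upper end of 0.0303.

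**Figure D4:**
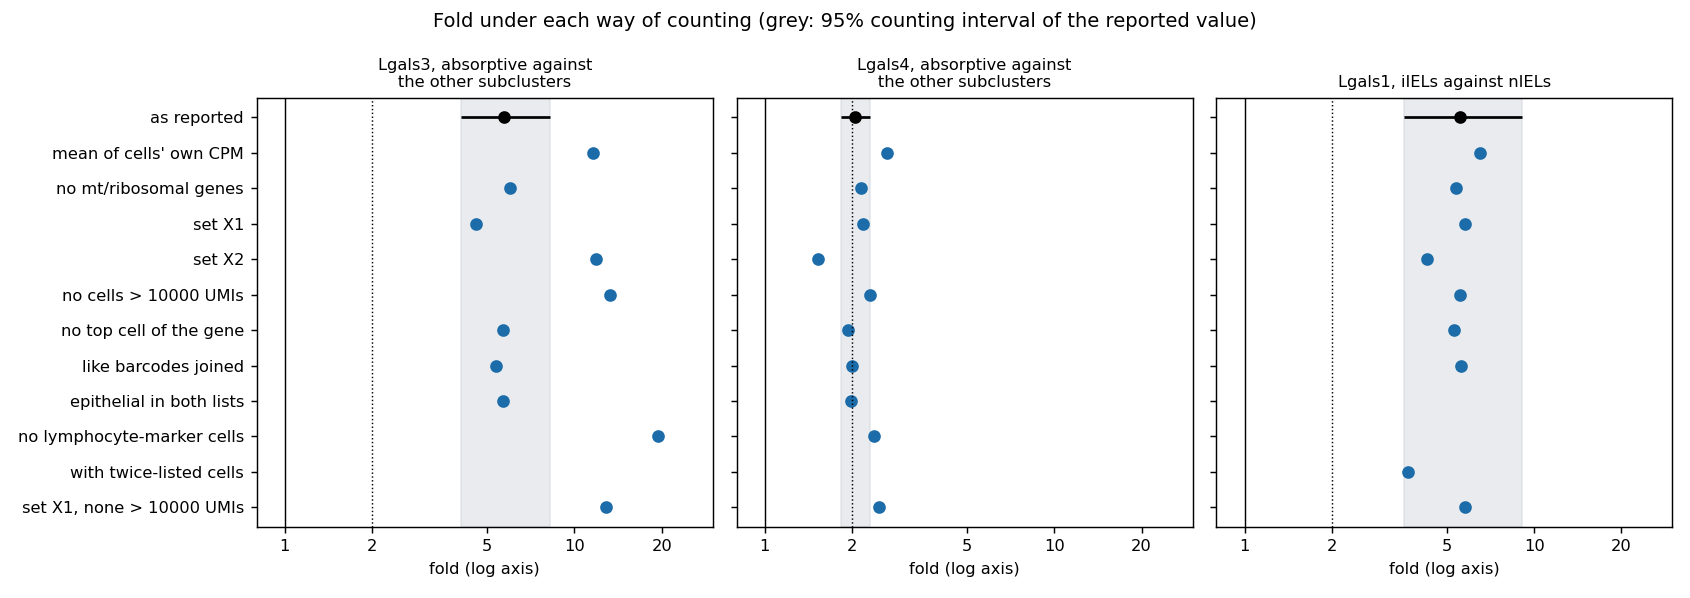
Fold on a log axis of Lgals3 and Lgals4 in absorptive precursors and of Lgals1 in iIELs against nIELs, as reported and under each alternative way of computing it, with a dotted line at 2-fold and the 95% counting interval of the reported value in grey. Lgals3 and Lgals1 are above 2-fold under every alternative shown, whereas Lgals4 lies on both sides of it, from 1.52 in X2 to 2.65 as the ratio of mean levels per cell.

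Lgals2, a prototype galectin of the gut, had 0 UMIs in the 516 assigned cells, which allows up to 3.52 CPM, and 1 UMI among the 601 other barcodes. Of the remaining galectin genes, 4 of 6 looked for had a row: Lgals8, Lgals12, Lgalsl and Grifin. Lgals8, a tandem-repeat galectin, had 21 UMIs in 14 nIELs, 87.5 CPM, and 6 in iIELs, 32.4 CPM. Its ratio in iIELs against nIELs was 0.370 (0.122 to 0.949), the opposite direction to Lgals1. Lgals12 had 8 UMIs in 8 epithelial cells and none in the 409 lymphocytes. With 3 counts put in for the lymphocytes the fold was 3.83, and the counting interval had a lower end of 2.45. Its 8 UMIs were too few for a call. Lgalsl, a galectin-like gene, had 18 UMIs and Grifin, a galectin-related lens protein, 1 UMI in the assigned cells.

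Galectins bind glycans that glycosyltransferases build in the Golgi, and 22 of the 23 such genes listed had a row. They stood highest in secretory precursors, the cells on the way to mucus-forming goblet cells, where galectin levels did not. Secretory precursors had a summed level of 2565 CPM, stem cells 1883 and absorptive precursors 1344, against 346 to 404 CPM in the 3 lymphocyte groups. Of the 12 with at least 20 UMIs in epithelial cells, secretory precursors had 6 called higher and 1 lower (9.16% and 18.0% over all genes), absorptive precursors 1 and 7 (12.9% and 12.6%), and stem cells 0 and 2 (13.1% and 16.1%). The 1 lower in secretory precursors, the 1 higher in absorptive precursors and the 2 lower in stem cells were near or below those shares. The median log2 ratio of the 12 was 0.93, -1.29 and -0.20 in that order, beside the -0.26, 0.11 and -0.04 over all genes given above.

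C1galt1, the enzyme that adds galactose to the first sugar of O-glycans, was 5.15-fold higher in secretory precursors (2.54 to 11.3), and its ratio in absorptive precursors was 0.206. C1galt1c1, its chaperone, had 2.29 and 0.283, and Gcnt3, which branches mucin O-glycans, 4.86 (1.83 to 15.1) and 0.195. St3gal6, a sialyltransferase, had 2.63 (1.80 to 3.88) and 0.401. Slc35a2, the transporter of UDP-galactose into the Golgi, had 2.02 and 0.419. Fut8, which adds core fucose, was at the 2-fold threshold (0.860 to 4.74) and at 0.310. Mgat4a, an N-glycan branching enzyme, went the other way, at 0.358 in secretory precursors and 3.42 in absorptive precursors (1.45 to 8.93). It thus shared the direction of Lgals3 and Lgals4, which these other 6 genes did not. Without the cells over 10000 UMIs, an alternative chosen after seeing the data, 8 genes could be called. Of these, 3 were higher and 0 lower in secretory precursors, and 1 was higher and 3 lower in absorptive precursors. The share over all genes was not computed for that alternative.

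**Figure D5:**
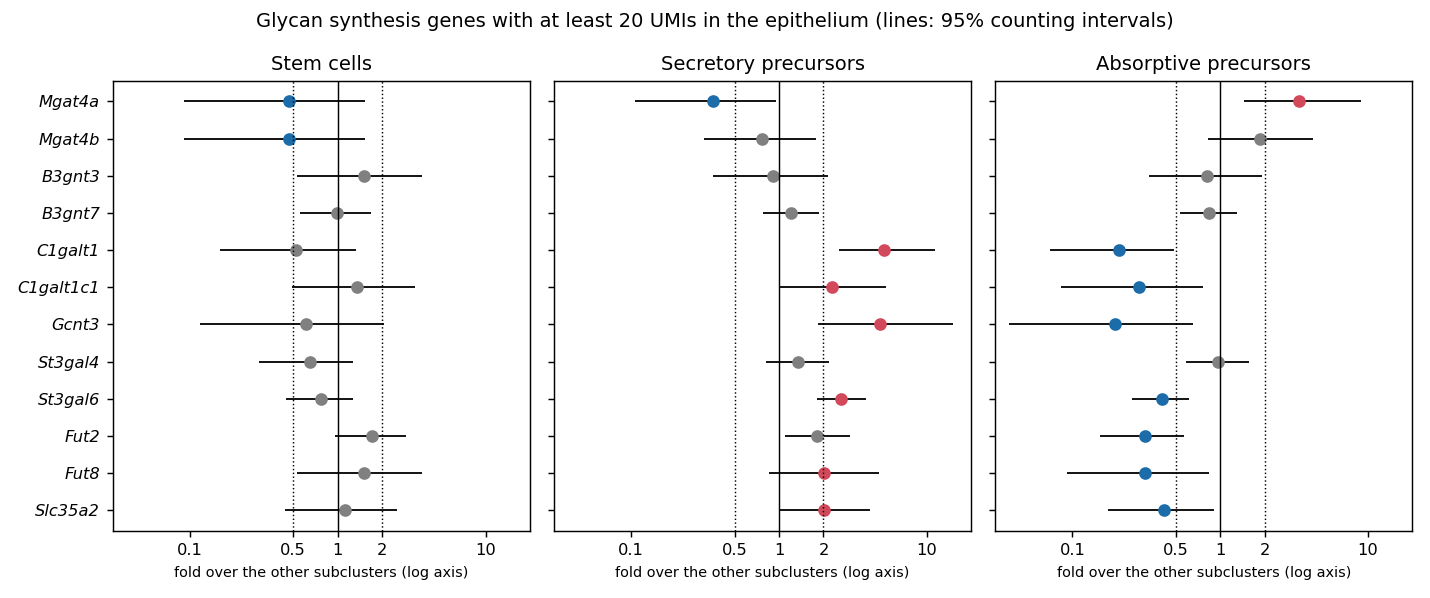
Fold, on a log axis, of each of the 12 glycan synthesis genes with at least 20 UMIs in epithelial cells in each subcluster over the other 2, with 95% counting intervals and dotted lines at 0.5 and 2. Red points are called higher and blue points lower: secretory precursors have 6 red points, and absorptive precursors 7 blue ones and a red one for Mgat4a.

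Between epithelial cells and lymphocytes, more glycan genes were called higher in epithelial cells than in any lymphocyte cluster. These counts are over the 4 clusters as listed, where dual-listed epithelial cells count as IELs. As listed, iIELs had 284127 UMIs, against 185158 without those cells, so their counts do not describe lymphocytes alone. Of the 15 with at least 20 UMIs, 12 were called higher and 2 lower in epithelial Pigr+ cells (19.2% and 24.0% over all genes). In nIELs 1 was higher and 11 lower (11.1% and 22.3%). In iIELs 1 was higher and 2 lower (4.33% and 7.0%), and in B cells 1 and 6 (9.15% and 20%). Fut2, the fucosyltransferase of secretor antigens, was 48.8-fold and B3gnt7, which extends keratan sulphate chains, 33.0-fold higher in the 106 epithelial cells than in lymphocytes. B4galt1, which builds the galactose ends that many galectins bind, had a ratio of 0.205 there, in the direction of Lgals1 and Lgals9.

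Of the listed binding partners, 14 had a row. None of the 5 with at least 20 UMIs in epithelial cells was called in any subcluster. Among the clusters as listed, with dual-listed cells counted as IELs, 3 of 11 were called higher and 4 lower in epithelial Pigr+ cells. The same counts were 2 higher and 3 lower in nIELs, 1 and 0 in iIELs, and 0 and 4 in B cells. The shares over all genes are those given above for the glycan genes in the same clusters, and a difference from them was not tested. Between iIELs and nIELs 1 of 8 was higher and 2 were lower, beside 6.20% and 5.72% of all genes. As listed, Ceacam1, an adhesion molecule, was 7.48-fold higher in epithelial Pigr+ cells (5.87 to 9.62). Bsg, or CD147, was 2.45-fold (1.89 to 3.18) and Lamp2, a lysosomal membrane protein, 2.07-fold higher. With the dual-listed cells counted as epithelial, the 106 epithelial cells were 73.0-fold, 4.74-fold and 3.26-fold above the 409 lymphocytes, in that order. Ceacam1 had 7 UMIs in those lymphocytes. Cd7, a galectin-1 counter-receptor, had 757 UMIs in nIELs and 261 in iIELs, with a ratio in iIELs against nIELs of 0.447 (0.387 to 0.515). The study shows Cd7 as an nIEL marker and lists Lgals1 for iIELs, so their directions describe its clusters and test nothing. The Cd7 level was lower in the cluster where that of Lgals1 was higher. Spn, which encodes CD43, was the other way round at 2.20 (1.23 to 4.04, 34 against 20 UMIs), and Ptprc, which encodes CD45, was at 1.05. Lgals3bp, a secreted glycoprotein bound by galectin-3, was at 0.381 (0.110 to 1.08, 5 against 17 UMIs). Havcr2, which encodes TIM-3, had 4 UMIs in lymphocytes, too few to set beside Lgals9.

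The likeness of other genes to each galectin was measured as Pearson's r of log2(CPM + 10) over 11 groups, the cell classes divided by barcode set, among 2853 genes with at least 50 UMIs. The 11 groups share libraries and differ in depth, so r is a description. Lgals1 was most like 9930111J21Rik2 (0.99), Vim (0.98), Cd8a (0.98), Itgb7 (0.97) and Cyth4 (0.97). Lgals4 was most like Dstn (0.98), Ckmt1 (0.98), Cldn7 (0.97), Krt8 (0.97) and Prss32 (0.97). Lgals9 was most like Litaf (0.95), Ptges3 (0.92), Vps4b (0.92), Ypel3 (0.91) and Med1 (0.90). For Lgals3 the values were lower, with Hint1 (0.90), Ndufa11 (0.87), Pycard (0.86), Ndufa7 (0.84) and Ndufc1 (0.83). Among the members, r was 0.61 for Lgals3 with Lgals4, 0.67 for Lgals1 with Lgals9, -0.90 for Lgals1 with Lgals4, -0.59 for Lgals3 with Lgals9, -0.58 for Lgals4 with Lgals9 and -0.47 for Lgals1 with Lgals3.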

How the data were processed

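Colon crypt cells of 2 pools under 1 condition were measured by Drop-seq. The authors made whole-number UMI counts with the Drop-seq pipeline. Tools and builds listed in the submitters' processing notes are STAR 2.5.0 and Picard 1.137, with mm10 and, for the added human cells, hg19. The counts were used as deposited by the authors, without normalization. Barcodes could not be tied to the 2 pools, so the groups are the clusters and subclusters of the study's own barcode tables, and all cells are 1 sample. The gene annotation, the rule for joining UMIs, the filters before deposition and any removal of doublets are not given in the sources used here, and no doublet caller was run.

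UMIs were summed per group, divided by the group's total UMIs and given per 1000000 (CPM) with exact Poisson 95% intervals. Folds compared a group with the other cells of the same table, with exact conditional binomial intervals, and shares of cells had exact Clopper-Pearson 95% intervals. Ribosomal and mitochondrial genes were kept in the totals. For a gene without UMIs, 3 counts were used as its upper limit. A call needed a fold of at least 2, or at most 0.5, and 20 UMIs in the cells compared. Thinning drew 700 or 800 UMIs per cell in 100 draws, leaving out shallower cells (84 of the assigned cells, or 18 epithelial cells). Total UMIs were 69046 for stem cells, 128664 and 151780 for secretory and absorptive precursors, nIELs 240024, iIELs 185158 and B cells 76713. The fold script was tested on simulated data. Python 3.11.15, numpy 2.4.6, scipy 1.17.1, pandas 2.3.3 and matplotlib 3.10.9 were used.

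The 5 galectins, the gene lists and the rules were chosen with earlier results of these data known. All 5 galectins and the other galectin genes with a row are named. Of the glycan and binding partner lists, genes with at least 20 UMIs could be named, and for likeness the 5 genes with the highest r for each galectin with at least 50 UMIs. Havcr2 and Lgals3bp are named as known partners, and S100a4, S100a6, Gzmb and Fcer1g were chosen after their values were seen.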

Additional observations from a re-analysis of the deposited data

Results flagged for a closer look

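Galectin UMIs also appeared in the 601 barcodes that the study's tables place in no cluster, which enter no comparison above. Over their 171737 UMIs, Lgals4 had 154 UMIs (897 CPM) in 77 barcodes, Lgals3 65 UMIs (379 CPM) in 44, Lgals9 17 UMIs (99.0 CPM) in 13 and Lgals1 13 UMIs (75.7 CPM) in 12. Each is above the 3 counts that an absent gene could still have. These barcodes had a median of 212 UMIs, and what they hold was not tested. The barcodes of the 2 pools cannot be told apart, so no pool could be compared with the other.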

How the results depend on the processing

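Of 303 recomputed values, 223 stayed within the main value's counting interval or, for counts, within 1.5 times, 78 moved further and 2 changed direction. The changes of direction were both in X2 alone, where few UMIs remain: Lgals1 in nIELs went from 0.494 to 1.79 and Lgals9 in B cells from 0.341 to 1.62. The fold of Lgals3 in absorptive precursors, 5.72, was 11.6 as the ratio of mean levels per cell, 11.9 in X2, 13.2 without cells over 10000 UMIs and 19.4 with epithelial cells free of T and B cell marker UMIs. That of Lgals4, 2.06, was 2.65, 1.52 and 2.38 under the first, the second and the last of these. In X1 without cells over 10000 UMIs, an alternative chosen after seeing the data, the values were 12.9 for Lgals3 and 2.49 for Lgals4. The fold of Lgals1 in iIELs against nIELs ranged from 3.67 to 6.52. In X2 alone 3 calls were made between subclusters in place of 5, and 4 between clusters in place of 11. Between iIELs and nIELs X2 gave 0 calls in place of 2. X1 gave 1 such call with all its cells and 1 without those over 10000 UMIs. Shares over all genes were not computed for these alternatives. The share of absorptive precursors with Lgals3, 78.6%, was 57.8% when thinned to 800 UMIs, and that of iIELs with Lgals1, 30.9%, was 13.1% for at least 2 UMIs and 23.9% when thinned. Of the 20 genes most like a galectin, 4 were shared when cell classes were not divided by barcode set and 11 with a pseudocount of 1. No paired analysis was possible because there is 1 group of samples and barcodes are not tied to pools, for which reason leaving out a pool was not run. Depth limits Lgals9 between subclusters, Lgals2 everywhere and every value in X2.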
